A study of Homo sapiens with 21 samples.

Results

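The comparison described here set the 3 libraries labelled shARID1A.4 against the 3 libraries labelled shARID1B.3, which are 6 of the 21 RNA-Seq libraries of the series. The pair was chosen by measured values. ARID1A is low in both conditions, ARID1B is low in the libraries labelled shARID1A.4 alone of the pair, and the conditions were matched on differences between shRNAs that recur across the study's groups. All 6 libraries came from SK-N-BE(2), an established human neuroblastoma cell line with amplified MYCN, transduced with lentiviral particles that carry a short hairpin RNA (shRNA), and RNA was taken at 72 h in biological triplicate. The other 15 libraries were 3 each of a non-silencing control and of the conditions labelled shARID1A.2, shARID1B.2, shARID1A/B.2.3 and shARID1A/B.4.2. The work used 1 cell line and 1 time point, and the p-values rest on the spread between replicate libraries within all 7 conditions.

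The BAF complex is the form of the mammalian SWI/SNF chromatin remodeler that contains either ARID1A or ARID1B, which exclude each other from the same complex. The complex moves nucleosomes at promoters and enhancers, and cells without ARID1A often depend on ARID1B. Comparing cells low in both transcripts with cells low in ARID1A alone asks what the loss of ARID1B adds when its paralog is already reduced.

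The deposited values are normalised read counts, meaning reads on a gene divided by 1 size factor per library. ARID1A (chr1:26693236-26782110, GRCh38) read 2289, 2157 and 2284 in the 3 shARID1A.4 libraries and 2507, 2479.9 and 2449.7 in the 3 shARID1B.3 libraries, against 6097 to 6463 in the control libraries. ARID1B (chr6:156776020-157210779) read 3065, 3109.7 and 3126 in the 3 shARID1A.4 libraries and 6182, 6038 and 6053 in the 3 shARID1B.3 libraries, against 5791 to 5804 in the control libraries. The libraries labelled shARID1B.3 therefore did not have less ARID1B than the control, which goes against their label, and those labelled shARID1A.4 had less of both transcripts. In the pair labelled shARID1A.2 and shARID1B.2, ARID1A averaged 2146 and 1920.4 and ARID1B 2241 and 5004, and there all 3 shARID1B.2 libraries were below the control in ARID1B, at 4913 to 5056. In the libraries labelled shARID1A/B.2.3 and shARID1A/B.4.2, ARID1A averaged 5659 and 5440.0 and ARID1B 2599 and 1907. Libraries are named below by these labels ("shARID1A.4 libraries" means libraries labelled shARID1A.4), and each direction is that of the label. As these values chose the pair, they are given without a test.

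**Figure D1:**
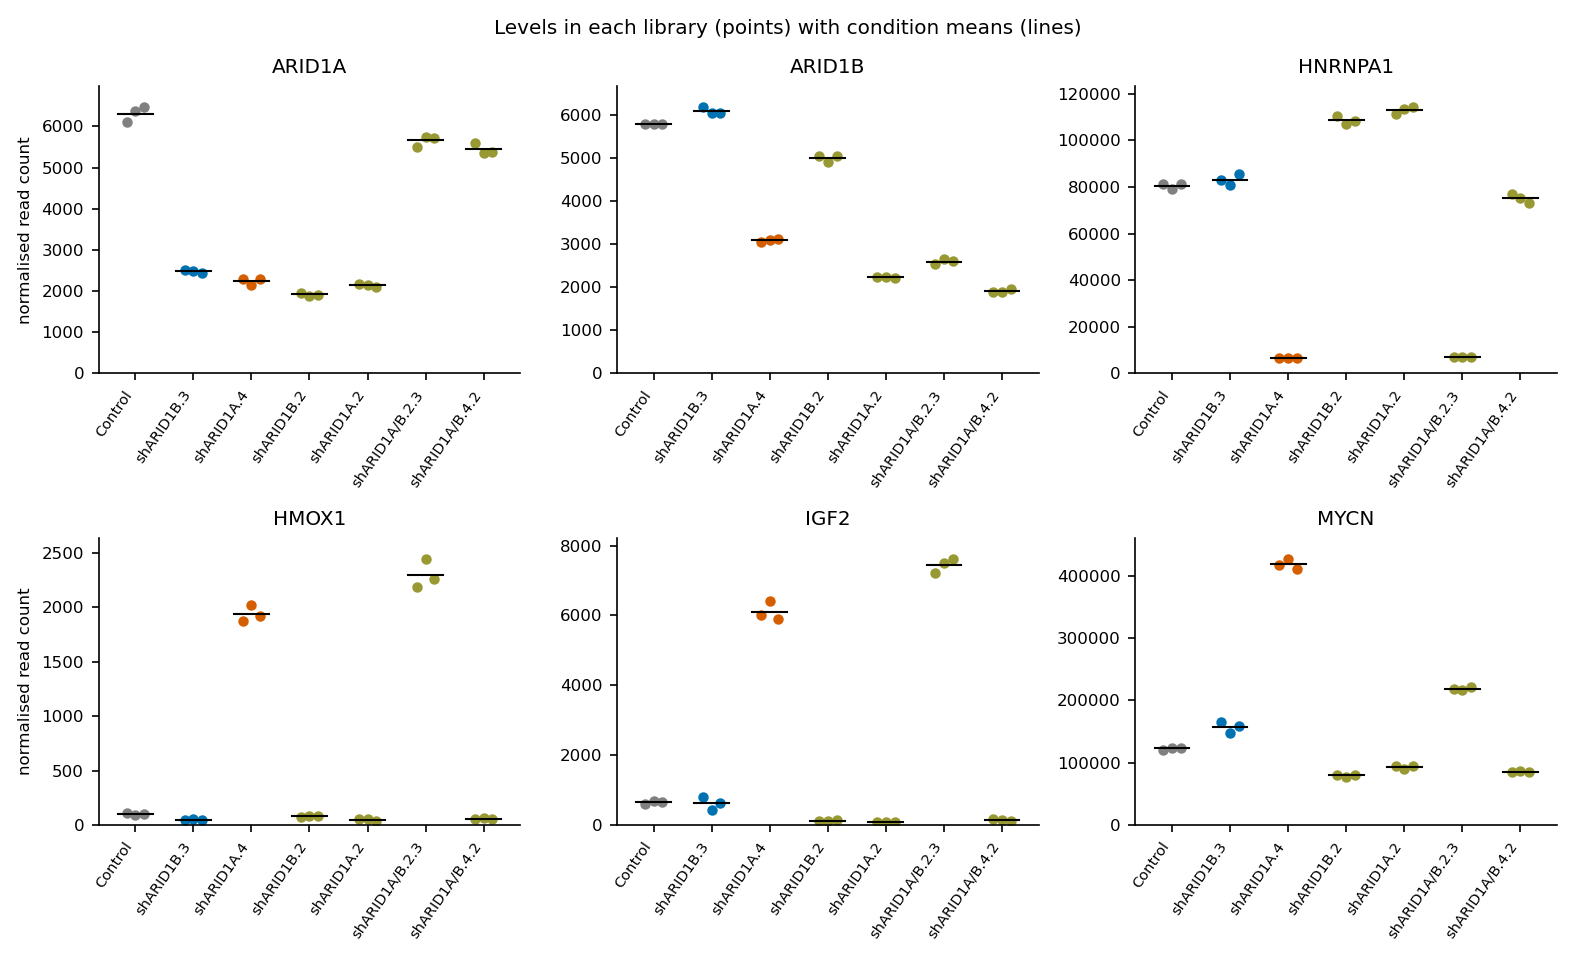
Normalised read counts (vertical axes, from 0) of 6 genes in each of the 21 libraries, by labelled condition (horizontal axes). Points are libraries and lines are means of 3. HNRNPA1 is low, and HMOX1 and IGF2 are high, in the shARID1A.4 and shARID1A/B.2.3 libraries.

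The 6 libraries held 30002640 to 41077638 reads, and the 21 libraries 27954334 to 41077638. Of 60728 gene identifiers, 18584 had enough reads for testing. Neuroblastoma markers were present, with PHOX2A between 9036 and 9882 and HAND2 between 14452 and 17254 in the 6 libraries. The 8 neuroblastoma markers, of which 5 were higher and 2 lower in the shARID1A.4 libraries, summed to 469103 to 487530 there and 194605 to 218093 in the shARID1B.3 libraries, most of it from MYCN. SOX10, a Schwann cell marker, was at 0 in all 6. Of 5 endothelial markers 4 stayed under 10 in all 6 libraries, as did 3 of 6 leukocyte markers. The 6 leukocyte markers summed to 101 to 116 in the shARID1A.4 libraries and 332 to 351 in the shARID1B.3 libraries, most of it from PTPRC, which read 60.2, 65.4 and 61.9 against 304, 296 and 309 in that order. The 6 fibroblast markers summed to 13088 to 13372 in the shARID1A.4 libraries, 28530.3 to 30090.2 in the shARID1B.3 libraries and 35012 to 35480.5 in the control. All 6 were lower in the first condition than in the second at an adjusted p of 0.05. They were not present alike, since COL1A2 read 1 to 17.3 over the 6 libraries and COL1A1 5459 to 10680. The cells were cultures of 1 line, and which cells carried these transcripts was not tested. In bulk RNA, fewer cells of a type and less RNA per cell cannot be told apart.

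Differences were tested with limma on log2 of the value plus 1, with Benjamini-Hochberg adjustment over the 18584 genes. They are given as shARID1A.4 minus shARID1B.3 ± SE, with 3 libraries in each condition. The SE and p-value of a gene use 1 spread estimated over all 21 libraries in 7 conditions. The SE can therefore be wider than the spread of these 6 libraries, as where other conditions are near 0. Much of the transcriptome differed. At an adjusted p of 0.05, 6025 genes (32.4%) were lower and 6485 (34.9%) higher in the shARID1A.4 libraries. With a log2 difference beyond 1 as well, which is the rule meant by "called" below, 1393 genes (7.5%) were lower and 1152 (6.2%) higher. The median log2 difference over all genes tested was 0.01 and the median size 0.38, while the median SD between replicates on the log2 scale was 0.07 in the first condition and 0.08 in the second. The libraries of the conditions did not overlap for 12894 genes (69.4%) and for 2441 of the 2545 called genes. Of the called genes, 1862 are protein-coding, 522 are lncRNAs and 161 are of other types.

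The widest fall among abundant transcripts was in HNRNPA1, which encodes an RNA-binding protein of the nucleus that takes part in splicing (chr12:54280193-54287088). It read 6516, 6444 and 6618 in the 3 shARID1A.4 libraries and 82896, 80845 and 85442 in the 3 shARID1B.3 libraries, and 79297 to 81384 in the control. The log2 difference was -3.67 ± 0.02 (adjusted p = 6.29e-33), and the groups are far apart. Across the series HNRNPA1 was low also in the shARID1A/B.2.3 libraries, with a mean of 7121, but averaged 113052 in the shARID1A.2 libraries and 75244 in the shARID1A/B.4.2 libraries, although ARID1B is low there too. So the shARID1A.4 libraries differ from the shARID1B.3 libraries in HNRNPA1 as well as in ARID1B, and within this pair their shares in the other differences cannot be told apart. Processed pseudogenes of HNRNPA1 share near-identical sequence with it, so their values are uncertain. The 7 that could be tested were all lower, from -3.93 to -1.11. Among them HNRNPA1P48, which GENCODE classes as protein-coding, read 73.8, 74.9 and 71.8 in the 3 shARID1A.4 libraries and 1178, 1045 and 1097 in the 3 shARID1B.3 libraries, and HNRNPA1P10 read 15.5, 15.5 and 11 against 152, 123 and 146.

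By the rule for named genes, the 12 protein-coding genes with the widest falls ranged from -3.89 to -2.61 on the log2 scale, and all 12 differences were separated from those of the second pair of conditions described below. MTPN, whose product myotrophin binds actin capping protein, read 1896, 1945 and 1999 in the 3 shARID1A.4 libraries and 13962, 14127 and 14178 in the 3 shARID1B.3 libraries, a log2 difference of -2.86 ± 0.03. ANTXR1, a cell-surface receptor of anthrax toxin that binds collagen, read 679, 717 and 713 in the 3 shARID1A.4 libraries and 4249, 4375 and 4241 in the 3 shARID1B.3 libraries (-2.61 ± 0.03). Both genes sat well under the control in the first condition, and ANTXR1 was also lower in the second, since the control averaged 13726 for MTPN and 8273 for ANTXR1. XKR5, a member of the XK-related family, read 16.5, 25 and 22 against 272, 239 and 228 in the same order of conditions (-3.50 ± 0.10). RBM24, an RNA-binding protein that guides splicing in muscle, read 12.6, 15.5 and 13 against 169, 162 and 159.7 (-3.49 ± 0.13). For these 4 genes the shARID1A/B.2.3 libraries were low as well, with means of 1746, 1091, 36.7 and 28.4. In the same order they averaged 4577, 5734, 494 and 303 in the shARID1A.2 libraries. In the shARID1A/B.4.2 libraries the means were 4180, 4789, 437 and 475. MTPN was thus well under the control in these 2 conditions too, and it was also called lower in the second pair (-1.07).

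IL33, a cytokine stored in the nucleus, read 102, 92.8 and 96.8 in the 3 shARID1A.4 libraries and 507, 715 and 594 in the 3 shARID1B.3 libraries (-2.61 ± 0.12), with 227 to 279 in the control, so that the control lies between the conditions. BMX, a tyrosine kinase of the TEC family, read 50.5, 26.2 and 36.9 against 319.6, 384 and 358 (-3.24 ± 0.17), again with the control between them at 159 to 196. AMHR2, the receptor of anti-Müllerian hormone, read 13.6, 13.1 and 12 against 95.6, 94.1 and 99.3 (-2.81 ± 0.17). GPNMB, a transmembrane glycoprotein of lysosomes and melanosomes, read 52.4, 54.7 and 72.8 against 382, 429 and 395 (-2.74 ± 0.12). Fewer reads were also on ACBD7, an acyl-CoA-binding protein, at 35, 40.4 and 43.9 against 273, 285 and 298 (-2.82 ± 0.10). FAM156B read 61.2, 91.6 and 34.9 against 258, 411 and 914 (-2.96 ± 0.98, adjusted p = 0.01). Its X-linked copy FAM156A is near-identical, so that its value is uncertain, and the control libraries themselves ranged widely, at 48.2, 858 and 885. Without shARID1B.3 replicate 3 FAM156B had a log2 difference of -2.47 with an adjusted p of 0.052 in limma.

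Among the 12 widest rises, HMOX1, the inducible enzyme of heme breakdown, stood first (chr22:35380361-35394214). It read 1876, 2025 and 1923 in the 3 shARID1A.4 libraries and 47.8, 53.2 and 45.8 in the 3 shARID1B.3 libraries, with 89.5 to 108 in the control. The log2 difference was 5.28 ± 0.11 (adjusted p = 2.80e-22). IGF2, an imprinted fetal growth factor (chr11:2129112-2149603), read 5999.6, 6427 and 5891 in the 3 shARID1A.4 libraries and 793, 418 and 641 in the 3 shARID1B.3 libraries (3.35 ± 0.14), and 607 to 692 in the control. Both genes were thus near or under the control in the shARID1B.3 libraries and far above it in the shARID1A.4 libraries. They were also high in the shARID1A/B.2.3 libraries, at means of 2298 and 7454, and low in the shARID1A.2 libraries, at 47.2 and 75.8.

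ABCA1, which exports cholesterol from cells, read 401, 445 and 442 in the 3 shARID1A.4 libraries and 32.9, 32.3 and 30.2 in the 3 shARID1B.3 libraries (3.71 ± 0.17). NIBAN1, a gene of the cellular stress response, read 549.7, 609 and 559 against 46.8, 61.8 and 57 (3.36 ± 0.33). LAMP3, a lysosomal membrane protein, read 128, 140.3 and 119 against 4.98, 6.65 and 9.5 (4.05 ± 0.48). For these 3 genes the shARID1A.4 libraries were far above the control, whose means were 30.4, 7.48 and 5.85. RETREG1, a receptor for autophagy of the endoplasmic reticulum, read 116, 122 and 106 against 14.9, 10.4 and 12.1 (3.11 ± 0.14). B3GNT7, a glycosyltransferase, read 119, 134 and 117 against 20.9, 14.2 and 10.4 (2.99 ± 0.21). PHYHIP averaged 116 and 12 (3.20 ± 0.17). The other rises were less firm. ECE2, an endothelin-converting enzyme whose locus is shared with a readthrough gene, read 220.4, 178 and 176 against 36.8, 4.75 and 41.5 (3.19 ± 0.42). AC012184.2 read 109.7, 109 and 121 against 0, 35.2 and 20.7 (3.63 ± 0.73) and AC068547.1 averaged 169.5 and 24.6 (3.19 ± 0.41). In both the first condition stayed under the control mean (176 and 289.6). The readthrough gene TMEM189-UBE2V1 read 204, 182 and 155 against 32.9, 0 and 112 (3.52 ± 1.38, adjusted p = 0.027). Reads of overlapping genes could be divided among them there. Without shARID1B.3 replicate 2 its log2 difference was 1.54 with an adjusted p of 0.29 in limma.

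Of the non-coding genes, TMPO-AS1 read 90.3, 82 and 84.8 in the 3 shARID1A.4 libraries and 495, 466 and 447 in the 3 shARID1B.3 libraries (-2.44 ± 0.08), and the gene on its opposite strand, TMPO, had a log2 difference of -0.69 ± 0.02. AC106895.2 fell as well, at 102, 99.9 and 92.8 against 560.5, 473 and 521 (-2.38 ± 0.08). AC132217.1, which lies on the same strand inside the span of IGF2, rose with it, at 124, 66.6 and 143 against 5.97, 5.7 and 9.5 (3.76 ± 0.55). L3MBTL2-AS1 read 198, 199 and 191 against 33.9, 44.7 and 40.6 (2.28 ± 0.55) and the imprinted lncRNA PEG13 167, 194 and 182 against 37.8, 41.8 and 40.6 (2.14 ± 0.23). The library kit keeps strand, but a stranded counting setting is not given in the sources used here, so reads of antisense partners may not have been separated.

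**Figure D2:**
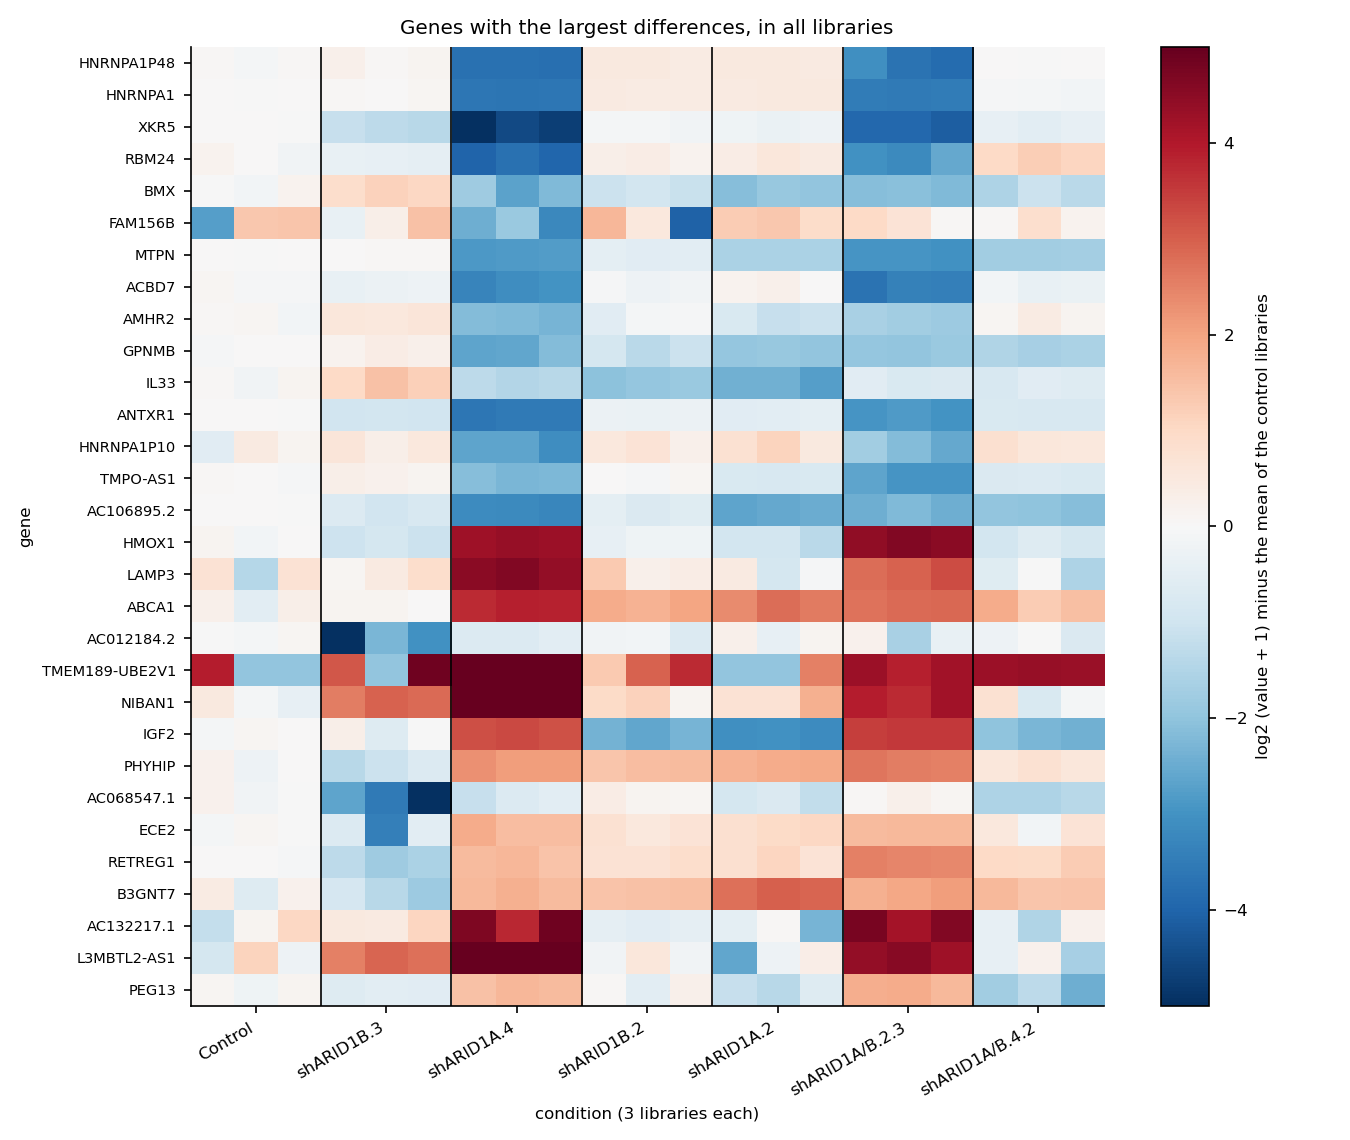
Log2 of the value plus 1, minus the mean of the 3 control libraries, for the 24 protein-coding and 6 other genes with the widest differences (rows) in all 21 libraries (columns, grouped by labelled condition). The colour scale ends at -5 and 5. HNRNPA1, HMOX1 and IGF2 stand out in the shARID1A.4 and shARID1A/B.2.3 libraries.

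Proliferation genes were lower almost throughout. Of 43 S phase genes, which replicate DNA, 42 were lower and 1 higher in the shARID1A.4 libraries (32.4% and 34.9% of all genes), with a median log2 difference of -0.87 against 0.01 over all genes. Of 54 G2/M genes, which run mitosis, 52 were lower and 0 higher, and CKAP5 and JPT1 had log2 differences of 0.02 and 0.06 without passing the test. Their median was -0.95. At an unadjusted p of 0.05 in limma 1 G2/M gene was higher, and at an adjusted p of 0.05 edgeR called 0 and DESeq2 1.

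TYMS, the thymidylate synthase, changed most among the S phase genes. It read 699, 679 and 715 in the 3 shARID1A.4 libraries and 2751, 2776 and 2858 in the 3 shARID1B.3 libraries (-2.0 ± 0.04), with 3359.5 to 3410.4 in the control. The replication licensing factor CDC6 read 1328, 1388 and 1412 against 3769, 3888 and 3749 (-1.47 ± 0.04). E2F8, a repressor of the E2F family, and WDR76 had log2 differences of -1.57 ± 0.10 and -1.55 ± 0.04. In G2/M, the mitotic kinase CDK1 read 2163, 2190.4 and 2305 in the 3 shARID1A.4 libraries and 5294, 5865 and 5607 in the 3 shARID1B.3 libraries (-1.33 ± 0.03), with 5783 to 5933 in the control. The cytoskeletal linker GAS2L3 read 314, 285 and 312 against 1184, 1149 and 1161 (-1.94 ± 0.06). The spindle checkpoint kinase BUB1 and the spindle protein TACC3 had log2 differences of -1.28 ± 0.03 and -1.20 ± 0.03. For TYMS, CDC6 and CDK1 the shARID1B.3 libraries lay close to the control and the shARID1A.4 libraries far below it.

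Of 20 G1 regulators, 12 were lower and 3 higher (32.4% and 34.9% of all genes, median -0.39). CDK2, the kinase of the G1/S step, read 805, 824 and 819 in the 3 shARID1A.4 libraries and 2529.6, 2603 and 2652 in the 3 shARID1B.3 libraries (-1.67 ± 0.03). Cyclin D1, encoded by CCND1, read 13802, 13741 and 13788 in the 3 shARID1A.4 libraries and 31460, 34505 and 32021 in the 3 shARID1B.3 libraries (-1.24 ± 0.03) and 39681 to 39769.6 in the control. CDK inhibitors were among the falls too, since CDKN2C read 1114, 1199 and 1133 against 2686, 2634 and 2612 (-1.20 ± 0.04) and CDKN1C 53.4, 59.5 and 57.9 against 159, 142 and 151 (-1.39 ± 0.13). CDKN1A, which encodes the inhibitor p21, was higher by a small step, at 167, 206 and 169 against 123, 137 and 116 (0.52 ± 0.14).

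Because these genes moved together, their promoters are shown with the elements known for such genes. The sequences are from RefSeq (GRCh38.p14) and cover the 250 bases before the annotated start, 5′ to 3′. In TYMS (chr18:657403-657652 on the plus strand) the capitals mark an E2F site, TTTNNCGC on either strand, 39 bases before the start:
TYMS: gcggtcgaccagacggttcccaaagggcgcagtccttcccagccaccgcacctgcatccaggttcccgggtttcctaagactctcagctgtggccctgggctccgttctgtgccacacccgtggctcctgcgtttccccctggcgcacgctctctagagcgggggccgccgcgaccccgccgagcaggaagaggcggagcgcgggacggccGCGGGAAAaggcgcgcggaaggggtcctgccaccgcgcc
In CDC20, a mitotic activator (chr1:43358731-43358980 on the plus strand), and CCNB2, cyclin B2 (chr15:59104896-59105145 on the plus strand), the capitals mark the cell cycle homology region TTTGAA and the CCAAT box:
CDC20: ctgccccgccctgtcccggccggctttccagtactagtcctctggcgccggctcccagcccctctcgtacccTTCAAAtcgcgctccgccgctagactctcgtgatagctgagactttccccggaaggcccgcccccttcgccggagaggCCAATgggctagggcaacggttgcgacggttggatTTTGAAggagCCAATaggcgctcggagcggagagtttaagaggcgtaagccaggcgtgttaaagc
CCNB2: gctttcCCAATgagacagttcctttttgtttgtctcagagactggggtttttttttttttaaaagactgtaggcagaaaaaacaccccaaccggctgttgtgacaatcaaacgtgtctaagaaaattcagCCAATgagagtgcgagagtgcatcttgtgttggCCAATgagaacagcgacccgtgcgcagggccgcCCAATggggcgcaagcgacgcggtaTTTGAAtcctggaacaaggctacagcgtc
These promoters were chosen after their values were seen. CDC20 averaged 964 in the shARID1A.4 libraries and 2017 in the shARID1B.3 libraries (-1.06 ± 0.04), and CCNB2 1672 and 3537 (-1.08 ± 0.03). Searching both strands, 24 of 45 G2/M promoters held TTTGAA (53.3%) and 31 held CCAAT (68.9%), against 13.6% and 33.0% of 27305 promoters. The E2F site was in 13 of 33 S phase promoters (39.4%) and in 5.93% of all. In the 12031 promoters of genes tested the shares were 8.73% for TTTGAA, 34.9% for CCAAT and 8.64% for the E2F site. Among the genes called lower as a whole, 12.5% of 855 promoters held TTTGAA, 39.3% CCAAT and 9.01% the E2F site. A match is a description of these letters and not of binding.

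Genes of catecholamine synthesis and storage were higher. In neuroblastoma and its parent tissue these enzymes turn tyrosine into noradrenaline and pack it into granules. Of 12 genes tested, 0 were lower and 11 higher by limma at an adjusted p of 0.05 (32.4% and 34.9% of all genes). Their median was 1.22. The count lower was also 0 at an unadjusted p of 0.05, by edgeR and by DESeq2. MAOB had a log2 difference of -1.07 and did not pass the test. TH, the rate-limiting hydroxylase, read 1775, 1599 and 1615 in the 3 shARID1A.4 libraries and 612, 509 and 427 in the 3 shARID1B.3 libraries (1.70 ± 0.10), with 659 to 714 in the control. GCH1, which makes the cofactor of TH, read 2169, 2295 and 2182 in the 3 shARID1A.4 libraries and 732, 525 and 709 in the 3 shARID1B.3 libraries (1.77 ± 0.08) and 2503 to 2579 in the control. DBH, which makes noradrenaline, read 872, 913 and 823 against 156, 161 and 166 (2.43 ± 0.09) and averaged 529 in the control. In the shARID1A/B.2.3 libraries TH and DBH averaged 2071 and 1131. They averaged 698 and 114 in the shARID1A.2 libraries, and 671 and 159 in the shARID1A/B.4.2 libraries. MAOA, which breaks monoamines down, read 451, 501 and 478 against 94.6, 83.6 and 82.9 (2.44 ± 0.06). The granule protein CHGA read 19714, 20174 and 19228 against 10553, 7086 and 8816 (1.18 ± 0.08) and 18943 to 19832 in the control. The conditions stood on either side of the control for TH and DBH, whereas GCH1 and CHGA were close to the control in the shARID1A.4 libraries and low in the shARID1B.3 libraries.

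MYCN, the amplified oncogene of this line (chr2:15940564-15947007), read 416868, 426870 and 410526 in the 3 shARID1A.4 libraries and 165689, 148109 and 158121 in the 3 shARID1B.3 libraries (1.41 ± 0.03, adjusted p = 1.94e-22), and 120355 to 124192 in the control. MYCN averaged 218568 in the shARID1A/B.2.3 libraries, but 93294 and 85143 in the shARID1A.2 and shARID1A/B.4.2 libraries, which are also low in ARID1B. Of 23 adrenergic regulators, MYCN among the rises, 12 were lower and 8 higher (32.4% and 34.9% of all genes, median -0.14). TFAP2B, a transcription factor of the sympathetic lineage, read 8600.3, 8838 and 8379.9 against 5806, 5094 and 5543 (0.65 ± 0.04), and TBX3 was lower, with -0.61 ± 0.05. Among 30 neuronal maturation genes 11 were lower and 15 higher (32.4% and 34.9% of all genes). The microtubule protein MAPT read 1971, 1999 and 1914 in the 3 shARID1A.4 libraries and 689, 647 and 636 in the 3 shARID1B.3 libraries (1.58 ± 0.05). The neurofilament gene NEFH read 7956, 8621 and 8141 against 3964, 3859.5 and 4051 (1.06 ± 0.04), with a control mean of 1319.9. RET, the GDNF-family receptor, was lower, at 3884, 3601 and 3812 against 9427, 9569 and 9181 (-1.32 ± 0.03), and it was already under the control mean of 30665 in the shARID1B.3 libraries.

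Stress genes were higher as well. ATF4 is the transcription factor of the integrated stress response, and its targets serve amino acid supply. Of 25 targets tested, 0 were lower and 21 higher by limma at an adjusted p of 0.05 (32.4% and 34.9% of all genes). Their median was 0.76. The count lower was again 0 at an unadjusted p of 0.05, by edgeR and by DESeq2. The ATF4 transcript itself had a log2 difference of 0.03 and did not pass. CHAC1, which degrades glutathione, read 2803, 2927 and 2780.3 in the 3 shARID1A.4 libraries and 673, 737 and 674 in the 3 shARID1B.3 libraries (2.03 ± 0.13) and 99.6 to 130.4 in the control. SLC7A5, a transporter of large neutral amino acids, read 33868, 33444 and 33092 in the 3 shARID1A.4 libraries and 10813, 10588 and 10277 in the 3 shARID1B.3 libraries (1.66 ± 0.03). SESN2, a leucine sensor, read 2672, 2772 and 2585 against 808, 811 and 813 (1.72 ± 0.04). The stress cytokine GDF15 read 249, 287 and 304 against 40.8, 49.4 and 51 (2.55 ± 0.40). For these 4 genes the shARID1B.3 libraries were above the control, whose means were 113, 7636, 233 and 13.9. The shARID1A.4 libraries were higher still. In the same order of genes the shARID1A/B.2.3 libraries averaged 2181, 33230.5, 1972 and 119. The other conditions low in ARID1B averaged 91.8, 3406, 1198 and 3.44 (shARID1A.2) and 84.5, 6820, 817 and 3.59 (shARID1A/B.4.2).

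Many such targets carry a C/EBP-ATF response element. In the 250 bases before the start of CHAC1 (chr15:40953221-40953470 on the plus strand) and of ASNS, the asparagine synthetase (chr7:97872409-97872658 on the minus strand), the capitals mark the letters TGATGNAAN on either strand:
CHAC1: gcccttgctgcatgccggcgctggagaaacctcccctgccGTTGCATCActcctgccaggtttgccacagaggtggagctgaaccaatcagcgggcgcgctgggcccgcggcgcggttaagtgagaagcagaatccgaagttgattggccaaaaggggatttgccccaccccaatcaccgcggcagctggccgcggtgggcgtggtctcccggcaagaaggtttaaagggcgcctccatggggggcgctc
ASNS: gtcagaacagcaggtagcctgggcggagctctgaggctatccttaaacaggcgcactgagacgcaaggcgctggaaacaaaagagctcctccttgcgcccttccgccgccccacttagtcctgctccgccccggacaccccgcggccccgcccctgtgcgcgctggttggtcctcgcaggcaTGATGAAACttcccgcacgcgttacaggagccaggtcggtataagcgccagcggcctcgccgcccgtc
ASNS, chosen after its values were seen, averaged 12529.5 in the shARID1A.4 libraries and 7849 in the shARID1B.3 libraries (0.68 ± 0.03). The letters were in 4 of 22 promoters of the list (18.2%) in 3.18% of all promoters and in 1.5% of those of genes tested. They were in 2.77% of the 686 promoters of genes called higher.

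Targets of NRF2, the factor of the oxidative stress response, form a list added after the value of HMOX1 was seen. Of 20 tested, 17 were higher and 2 lower (34.9% and 32.4% of all genes, median 0.57). NQO1, a quinone reductase, read 10994, 11955 and 11469 in the 3 shARID1A.4 libraries and 3359, 3736 and 3571 in the 3 shARID1B.3 libraries (1.69 ± 0.04) and 1745 to 1818 in the control, and OSGIN1 read 433, 454 and 425 against 75.7, 119 and 73.4 (2.32 ± 0.15). NQO1 averaged 7024 in the shARID1A/B.2.3 libraries, 2219 in the shARID1A.2 libraries and 1925.5 in the shARID1A/B.4.2 libraries. The exporter ABCC2 was lower, at 38.9, 30.9 and 24.9 against 97.6, 99.8 and 109.7 (-1.69 ± 0.19). Of 14 AP-1 subunits 4 were lower and 6 higher, where ATF3, a stress-induced member that is also on the ATF4 list, read 797, 787 and 869 against 286, 268 and 295 (1.53 ± 0.10). MAFK, a small MAF protein, had 1.05 ± 0.11 and JUN -0.59 ± 0.07.

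Among the integrin, matrix and mesenchymal lists more members were lower than higher, against 32.4% lower and 34.9% higher of all genes, and the cadherins were split. The summed fibroblast markers given above were lower too, but they are not separate from these lists. Their widest fall, -2.63, is also that of the matrix list, so members may be shared. Their part in these lists was not tested. Of 21 integrins 12 were lower and 4 higher (median -0.52). ITGA2, a collagen receptor subunit, read 223, 287 and 260.5 in the 3 shARID1A.4 libraries and 1395, 1739.7 and 1508 in the 3 shARID1B.3 libraries (-2.59 ± 0.07), with 1314 to 1411 in the control. ITGA9 read 103, 126 and 142 against 345, 301 and 313 (-1.37 ± 0.08), and ITGA4 had -1.43 ± 0.18. ITGA5, a subunit of the fibronectin receptor, went the other way, at 261, 271 and 239.5 against 56.7, 70.3 and 77.7 (1.91 ± 0.13), with 273 to 299 in the control. ITGB3 read 15.5, 22.6 and 19 against 18.9, 26.6 and 14.7 (-0.05 ± 0.21, adjusted p = 0.85) against 158 to 179 in the control, so it was low in both conditions and their libraries overlapped.

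Of 31 matrix genes, 17 were lower and 8 higher (median -0.31). The proteoglycan VCAN read 6150.1, 5707 and 5884 in the 3 shARID1A.4 libraries and 20383, 20498 and 20514 in the 3 shARID1B.3 libraries (-1.79 ± 0.02), and 42381 to 43628 in the control, so it was already lower than the control in the second condition. COL6A3, a collagen VI chain, had a log2 difference of -1.48 ± 0.09. The laminin chain LAMA4 and the lysyl oxidase LOXL1 were higher, with 1.67 ± 0.06 and 1.40 ± 0.12. LOXL2 averaged 536 and 785 (-0.55 ± 0.06), both far under the control mean of 3824. Of 15 cadherins, 7 were lower and 5 higher (median -0.11). N-cadherin, encoded by CDH2, read 9368, 9520.4 and 9650.3 against 14013, 14609.5 and 14431 in the same order (-0.59 ± 0.03). CDH10 and CDH18 were lower as well, with -1.0 ± 0.08 and -0.66 ± 0.06, and CDH7 was higher, with 1.35 ± 0.36.

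Mesenchymal regulators were lower in 10 of 16 and higher in 5 (median -0.40). The Notch coactivator MAML2 read 1218, 1263 and 1260.4 in the 3 shARID1A.4 libraries and 3445, 3634 and 3503 in the 3 shARID1B.3 libraries (-1.5 ± 0.03). ZEB2, a repressor of epithelial genes, read 751, 689.7 and 714 against 1532, 1795 and 1712 (-1.22 ± 0.05). TWIST1 and SNAI2, transcription factors of the same programme, had -0.79 ± 0.05 and -0.66 ± 0.10, while the AP-1 subunit FOSL1 was higher, with 0.73 ± 0.12. Of 23 YAP/TEAD targets, 12 were lower and 5 higher (32.4% and 34.9% of all genes, median -0.26). GADD45A, a gene of the DNA damage response, averaged 282 and 792 (-1.49 ± 0.06), with 831 in the control. The receptor kinase AXL, the matricellular protein CCN1 and the kinase LATS2 had log2 differences of -1.41 ± 0.09, -1.32 ± 0.09 and -0.99 ± 0.13.

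Among 22 TGF-beta pathway genes, 16 were lower and 4 higher (32.4% and 34.9% of all genes, median -0.62). The receptor TGFBR1 read 581, 543 and 607 in the 3 shARID1A.4 libraries and 1899, 1905 and 1828 in the 3 shARID1B.3 libraries (-1.70 ± 0.05). The coreceptor ENG and the inhibitor SMAD7 had -1.28 ± 0.09 and -1.07 ± 0.06. The ligand subunit INHBE went the other way, at 136, 128 and 139.7 against 10.9, 23.8 and 25 (2.78 ± 0.34), with a control mean of 9.57. Of 16 Notch genes 6 were lower and 3 higher. The ligand JAG2 read 227, 259 and 236 against 69.7, 44.7 and 54.4 (2.10 ± 0.13). DLL3, another ligand, was higher too, with 1.28 ± 0.08, and RBPJ, the DNA-binding factor of the pathway, lower, with -0.91 ± 0.03.

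Of 9 endothelin genes 6 were lower and 2 higher (32.4% and 34.9% of all genes, median -0.91). The receptor EDNRA read 1009, 1062 and 1043 against 1728, 2163 and 1987 (-0.91 ± 0.07), with 638 to 657 in the control, so both conditions were above it. The ligand EDN3 read 99, 113 and 90.8 against 194, 95 and 182 (-0.57 ± 0.16), with overlapping libraries. The peptidase ECEL1 read 63.1, 77.3 and 74.8 against 31.9, 45.6 and 31.1 (0.98 ± 0.42, adjusted p = 0.044). Leaving out shARID1B.3 replicate 3 gave ECEL1 a log2 difference of 0.89 and an adjusted p of 0.12 in limma.

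Interferon-stimulated genes split, with 7 of 33 lower and 13 higher (32.4% and 34.9% of all genes, median 0.25). IFIT2, which binds translation factors, read 185, 239 and 243 in the 3 shARID1A.4 libraries and 50.8, 51.3 and 59.6 in the 3 shARID1B.3 libraries (2.02 ± 0.16), and 80.6 to 105 in the control. The exonuclease ISG20 read 100.03, 82 and 103 against 23.9, 11.4 and 19 (2.38 ± 0.27). PARP9 and PARP14, of the ADP-ribosyltransferase family, had 1.20 ± 0.08 and 1.05 ± 0.06. PARP9 averaged 496 in the shARID1A.4 libraries and 497 in the control, and PARP14 1076 and 1106, so that the shARID1B.3 libraries lay below both. Of 8 nucleic acid sensor genes, 2 were lower and 4 higher. The ubiquitin ligase TRIM25, the kinase TBK1 and the RNA editor ADAR were higher, with 0.92 ± 0.03, 0.36 ± 0.04 and 0.17 ± 0.02, and the adaptor MAVS was lower, with -0.50 ± 0.02.

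Of 25 p53 targets 9 were lower and 10 higher (median -0.02), close to the shares of all genes (32.4% and 34.9%). The DNA repair gene DDB2 read 166, 193 and 185 in the 3 shARID1A.4 libraries and 703, 673 and 683 in the 3 shARID1B.3 libraries (-1.92 ± 0.07), and TP53INP1 had -1.01 ± 0.05. GDF15 and SESN2, given above among the ATF4 targets, are on this list as well. Of 14 BCL2 family genes 6 were lower and 6 higher (32.4% and 34.9% of all genes). The pro-apoptotic gene HRK read 344, 359 and 352 against 142, 89.3 and 156 (1.48 ± 0.13), with a control mean of 269. BAK1 and PMAIP1, also pro-apoptotic, had 1.09 ± 0.04 and 0.73 ± 0.07, and BCL2L11, another such gene, was lower, with -0.87 ± 0.03. Of 25 cholesterol synthesis genes 12 were lower and 9 higher (32.4% and 34.9% of all genes, median -0.07). The sterol carrier STARD4, the isomerase IDI1 and HSD17B7 had -1.29 ± 0.04, -1.07 ± 0.03 and -0.82 ± 0.07, and the cyclase LSS was higher, with 0.79 ± 0.03. The cytosolic ribosomal protein genes differed by small steps. Of 36, 32 were higher and 2 lower (34.9% and 32.4% of all genes), with a median of 0.23. The largest rise, 0.40 ± 0.03, was in RPS6.

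Within the SWI/SNF complexes, 15 of 30 subunit genes were lower and 9 higher (32.4% and 34.9% of all genes, median -0.10). This list includes ARID1A and ARID1B, which chose the pair. SMARCD1, a core subunit, read 1889, 1881 and 1839 in the 3 shARID1A.4 libraries and 3818, 3648 and 3962 in the 3 shARID1B.3 libraries (-1.03 ± 0.03), and 4889 to 5024 in the control. BCL7A was higher, at 5454, 5725 and 5566 in the 3 shARID1A.4 libraries and 2511, 2393 and 2546 in the 3 shARID1B.3 libraries (1.17 ± 0.02), with 2408 to 2481 in the control. DPF3, a histone reader subunit, read 103, 78.5 and 84.8 against 160.3, 162 and 188 (-0.94 ± 0.09). In the shARID1A/B.2.3 libraries SMARCD1, BCL7A and DPF3 averaged 2114, 5569 and 314. The other conditions low in ARID1B averaged 6195, 4315 and 331 (shARID1A.2) and 6987, 4453 and 475 (shARID1A/B.4.2). The ATPase SMARCA4 and the scaffolds SMARCC1 and SMARCC2 had log2 differences of 0.03, 0.05 and 0.06 and did not pass the test.

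The pair labelled shARID1A.2 and shARID1B.2 differs from the first pair in its libraries and shares none with it, and ARID1B there fell by a like step (-1.16 against -0.97 on the log2 scale, both used in choosing the pairs). In that pair 5797 genes (31.2%) were lower and 5800 (31.2%) higher at an adjusted p of 0.05, and 931 (5.01%) were called lower and 961 (5.17%) higher. Called in the same direction in both pairs were 169 lower and 155 higher genes, which is 12.7% of the 2545 genes called in the first pair and 17.1% of the 1892 called in the second. A further 162 genes were called in opposite directions. Across the 18584 genes Pearson's r between the log2 differences of the pairs was 0.11, and genes are not independent replicates. The difference between the pairs was tested by the interaction term in limma. It passed an adjusted p of 0.05 for 11896 genes (64%) and was called for 3474 (18.7%). It was called for 1495 of the 2545 genes called in the first pair. Those genes were chosen on their first difference, which is part of this value, so a larger share is partly fixed by the choice.

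**Figure D3:**
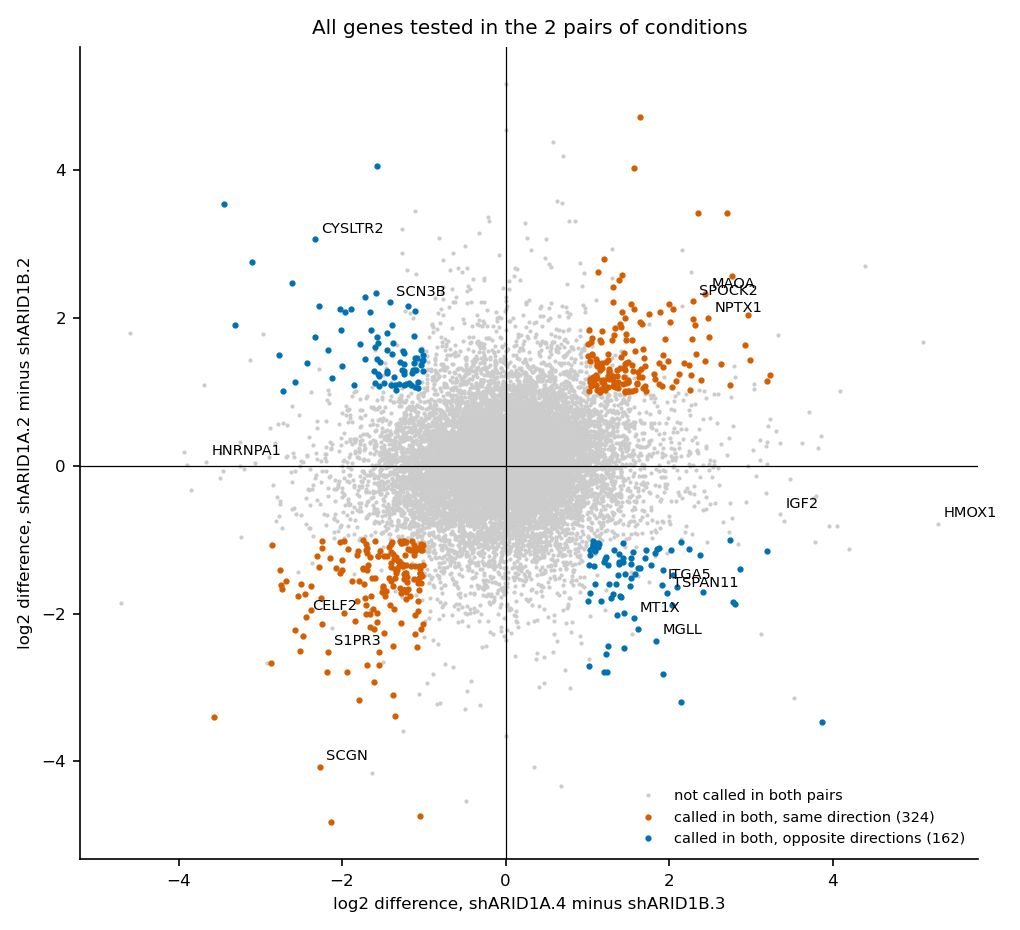
Log2 difference of each gene in shARID1A.4 minus shARID1B.3 (horizontal axis) and in shARID1A.2 minus shARID1B.2 (vertical axis). Orange points are the 324 genes called in the same direction in both pairs, blue points the 162 called in opposite directions. HNRNPA1, HMOX1 and IGF2 lie far from 0 on the horizontal axis alone.

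Of the genes called higher in both pairs, MAOA read 4113, 4325 and 4264 in the shARID1A.2 libraries and 853, 847 and 833 in the shARID1B.2 libraries, a log2 difference of 2.32 beside 2.44 in the first pair. NPTX1, a neuronal pentraxin of synapses, read 2493, 2658 and 2579 in the 3 shARID1A.4 libraries and 450.0, 505 and 433 in the 3 shARID1B.3 libraries in the first pair (2.48 ± 0.11), and 2.00 was its log2 difference in the second. The proteoglycan SPOCK2 had 2.29 and 2.23, the potassium channel KCNH6 2.32 and 1.90, and LAMA4 1.67 and 1.91. For these 5 rises the difference between the pairs was not called. It passed an adjusted p of 0.05 at sizes under 1 for NPTX1 and LAMA4. These rises, and the 5 falls below, were chosen for large differences of the same direction in both pairs. That choice favours a small difference between the pairs.

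Falls common to both pairs included CELF2, an RNA-binding splicing regulator. It read 18.4, 16.6 and 16 in the 3 shARID1A.4 libraries and 102, 87.4 and 101 in the 3 shARID1B.3 libraries (-2.44 ± 0.11) and 51.5, 54.6 and 69 against 236, 236 and 252 in the second pair (-2.04), with 711 to 788 in the control. The sphingosine phosphate receptor S1PR3 read 54.4, 61.8 and 58.9 against 223, 308 and 276 (-2.17 ± 0.13) and had -2.51 in the second pair. The calcium-binding protein SCGN had log2 differences of -2.27 and -4.07, the protein kinase C gene PRKCH -1.94 and -2.79, and INKA1, an inhibitor of PAK4, -1.61 and -2.92. By the interaction test at an adjusted p of 0.05, SCGN, PRKCH and INKA1 fell further in the second pair and CELF2 in the first, and with a size above 1 as well SCGN and INKA1 remain.

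Genes called in opposite directions included SCN3B, a sodium channel subunit. It read 1222, 1171 and 1302 in the 3 shARID1A.4 libraries and 3177, 3436 and 3241 in the 3 shARID1B.3 libraries (-1.41 ± 0.04), but 22851, 22439.7 and 22763 in the shARID1A.2 libraries and 4779, 5052 and 4869 in the shARID1B.2 libraries (2.21). CYSLTR2, a leukotriene receptor, had log2 differences of -2.33 and 3.06, DHRS2 -1.24 and 1.28, and the collagen hydroxylase P3H2 -1.24 and 1.24. In the other sense, the lipase MGLL had 1.84 and -2.36, TSPAN11 1.97 and -1.73, ITGA5 1.91 and -1.61, and the metallothionein MT1X 1.57 and -2.07.

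By list, the proliferation genes leaned the same way in both pairs, with medians nearer 0 in the second. In the second pair, beside 31.2% lower and 31.2% higher of all genes, 40 of 43 S phase genes and 48 of 54 G2/M genes were lower, with medians of -0.44 and -0.49 beside -0.87 and -0.95. The difference between the pairs passed an adjusted p of 0.05 for 40 and 51 of them, and for 64% of all genes. HNRNPA1 had a log2 difference of 0.06 in the second pair. The ATF4 targets did not share the lean, with 13 lower and 6 higher in the second pair and a median of -0.15. Interferon-stimulated genes were lower in 21 of 33 there and higher in 5, with a median of -0.60. Catecholamine genes were higher in 7 of 12 and lower in 2, with a median of 0.55, and among them DBH and GCH1 had -0.33 and -0.37 in the second pair. More members were lower than higher there among TGF-beta genes (16 and 3), integrins (11 and 2) and matrix genes (17 and 6). So it was for YAP/TEAD targets (15 and 3) and endothelin genes (6 and 0), by limma at an adjusted p of 0.05. Of the NRF2 targets 7 were lower and 8 higher there, with a median of 0.05.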

How the data were processed

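RNA-Seq libraries of SK-N-BE(2) cells at 72 h were prepared by the study with a stranded mRNA kit. The submitters' processing notes name STAR 2.5.3a, RSEM 1.3.0, DESeq2 1.26.0 and GRCh38, and give the steps no order. The signal deposited by the authors for each gene is a read count over a size factor for that library (0.841 to 1.29). Whole reads were recovered from these values for 100% of them, with a largest deviation of 0.0089 read. Values of overlapping genes and near-identical copies are uncertain, since RSEM divides reads among them by estimation. The authors' tables of their own comparisons (log2 fold changes and p-values) were not used.

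Genes were filtered with edgeR's filterByExpr over the 7 conditions (18584 of 60728). Log2 of the value plus a pseudocount of 1 was fitted with limma 3.58.1 (R 4.3.3) on all 21 libraries, with a trend, and p-values were adjusted by Benjamini-Hochberg. Log2 differences are on that scale, which understates changes of low genes. Calls required an adjusted p of 0.05 and a log2 size of 1. Libraries were grouped by their labels, and the labels were kept where ARID1A and ARID1B go against them. The difference of the pairs was an interaction term. Replicates differed by more than sampling noise (chi-square per degree of freedom 1.55 to 4.26). Alternatives used edgeR 4.0.16 (quasi-likelihood, TMM) and DESeq2 1.42.0 on the recovered reads, other pseudocounts, filters and scalings, fewer libraries, a replicate block and each replicate left out. Coordinates are from GENCODE release 29 (18341 of 18584 genes matched without version). Python 3.11.15 drew the figures.

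The pair of conditions, the gene lists and the rule for named genes were chosen with earlier results of these data known. Named genes have a mean of at least 50 over the 6 libraries: the 12 widest falls and rises among protein-coding calls without overlap, 3 each of other types, 5 each called alike and 4 each called oppositely in both pairs, and in each list up to 4 members with the largest differences at an adjusted p of 0.05, plus 9 genes with textbook roles. The lists of NRF2 targets, hnRNP, imprinted and metallothionein genes were added after seeing the data. Other genes named were chosen after their values were seen. A few genes are not reported here. shRNA sequences were not used here.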

Additional observations from a re-analysis of the deposited data

Results flagged for a closer look

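For the genes named by rule, the log2 difference of the first pair (labelled shARID1A.4 minus shARID1B.3) was compared with that of the second (labelled shARID1A.2 minus shARID1B.2) by limma's interaction term, adjusted over 18584 genes. Genes chosen for opposite calls in the pairs are not among them, since that choice fixes a difference. The widest falls and rises were chosen on their size in the first pair, which is part of the value. The 36 given here passed an adjusted p of 0.05 with a size above 1, as did 18.7% of all genes tested. Each value below is the first difference minus the second on the log2 scale.

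Among the widest falls, HNRNPA1 had -3.73, its copies HNRNPA1P48 -3.90 and HNRNPA1P10 -3.57, RBM24 -3.67, XKR5 -3.34, ACBD7 -3.13, ANTXR1 -2.39 and MTPN -1.79. BMX had -2.27, AMHR2 -2.07, IL33 -2.02 and GPNMB -1.90. FAM156B had -4.75 and TMPO-AS1 -1.66.

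Among the widest rises, HMOX1 had 6.06, IGF2 4.00 and AC132217.1 at the same locus 4.19. LAMP3 had 4.86, ABCA1 2.98, NIBAN1 3.05, RETREG1 3.02, PHYHIP 2.87, ECE2 2.92 and B3GNT7 1.56. The lncRNAs PEG13 and L3MBTL2-AS1 had 3.14 and 3.20. TMEM189-UBE2V1 had 6.66, AC068547.1 4.35 and AC012184.2 3.33, with wide errors at overlapping loci.

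SCGN and INKA1, lower in both pairs, had 1.79 and 1.31.

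Genes with textbook roles differed too. MYCN had 1.18, CDKN1A 1.18, SNAI2 1.35, EDN3 1.3 and ITGB3 1.60. CDKN1A rose in the first pair and fell in the second, and ITGB3 passed the test in the second alone (-1.65 against -0.05).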

How the results depend on the processing

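The count of genes lower in the shARID1A.4 libraries, 1393, and of genes higher, 1152, stayed within 1.5 times under edgeR (1434 and 1168), DESeq2 (1319 and 1116), other pseudocounts and scalings, no filter on low values and the libraries of the 2 conditions alone. Requiring 10 reads in every library left 14637 genes and gave 820 and 665. An adjusted p of 0.001 with a log2 size of 1.5 gave 369 and 348. Exchanging a condition gave 2174 genes lower in shARID1A.4 against shARID1B.2 and 2428 higher in shARID1A.2 against shARID1B.3. With each replicate left out in turn, 1350 to 1426 genes were lower and 1117 to 1167 higher, and 89.98% to 91.79% of the called genes were called again. Scaling moved the median of all genes by at most 0.026 on the log2 scale.

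Libraries with the same replicate number did not deviate together (correlations of -0.04 to 0.02), so the numbers were not taken to pair the samples. A fit with the replicate number as a block gave 1390 lower, 1155 higher and 3471 genes that differed between the pairs.

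On the lists, 42 S phase and 52 G2/M genes were lower in each of the alternatives run within the pair, and 0 to 2 G2/M genes were higher. For the 152 named genes, 2400 of 2417 values under an alternative kept their direction and side of the threshold. ITGB3, which did not pass the test, turned sign without shARID1A.4 replicate 1 (0.08) and without shARID1B.3 replicate 2 (0.17), and ranged from -0.24 to 0.17 over the 6 fits that leave a replicate out. TMEM189-UBE2V1 lost its call under DESeq2 (adjusted p = 0.37) and in 4 further settings, ECEL1 in 8, EDN3 with the 2 conditions alone (0.058) and FAM156B without shARID1B.3 replicate 3. The cause was not tested. The difference in ARID1B cannot be told apart from other differences between the shRNAs.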

Other observations

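Most genes of 1 family of RNA-binding proteins, which includes HNRNPA1, were lower. This family of 31 hnRNP and related genes was chosen after the values were seen. Of 30 tested, 26 were lower and 3 higher in the shARID1A.4 libraries (32.4% and 34.9% of all genes, median -0.31). The poly(C)-binding proteins PCBP1 and PCBP2, which regulate splicing and mRNA stability, read 4814, 4777 and 4861 against 11939, 11689 and 11605 (-1.29 ± 0.02) and 8283, 8537 and 8465 against 20649, 20667 and 21316 (-1.31 ± 0.02). Both were close to the control in the shARID1B.3 libraries, as the control averaged 12905 and 22857. In the shARID1A/B.2.3 libraries PCBP1 and PCBP2 averaged 4471 and 8495. They averaged 8131 and 32689 in the shARID1A.2 libraries, and 9682 and 25948 in the shARID1A/B.4.2 libraries. HNRNPA1L2, an intronless copy of HNRNPA1 whose reads may be shared with it, read 149.6, 151 and 152 against 457, 445 and 499 (-1.62 ± 0.06). In the second pair the family was lower in 24 and higher in 4, with a median of -0.20, and PCBP1 and PCBP2 had -0.06 and 0.25.

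Imprinted genes moved both ways. Of 28 tested, with IGF2 among them, 11 were lower and 13 higher, beside 32.4% and 34.9% of all genes. KCNK9, a potassium channel near PEG13, read 530.2, 524 and 464 in the 3 shARID1A.4 libraries and 88.6, 67.5 and 83.8 in the 3 shARID1B.3 libraries (2.65 ± 0.12), and GRB10, an adaptor that dampens insulin and IGF signalling, 1077, 1217 and 1121 against 230.0, 263 and 221 (2.25 ± 0.09). In the second pair these genes had -0.76 and -0.36. The metal-binding metallothioneins were higher in 3 of 5 tested in the first pair and lower in 5 of 5 in the second. MT2A read 101, 80.9 and 99.8 against 53.8, 55.1 and 54.4 (0.77 ± 0.17) and had -1.87 in the second pair.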
